A study of Mus musculus with 29 samples.

Results

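Avil, Hsf5, Apoa1, Cyp2j12, Wfikkn1, Ccdc169, Nkx6-2, Aldh8a1, Rinl and Srpk3 are 10 genes outside the interferon response whose RNA was higher in the prefrontal cortex (PFC) of mice given anti-miR-99b than in mice given sc-control. They are 10 of the 48709 genes in the deposited tables and 10 of the 15 genes that passed the threshold in the PFC. They were chosen by their measured PFC difference between these 2 groups, so the PFC values describe the genes and carry no test. Values chosen for their size can also be too large, which limits any comparison of the cultures with them. The choice was stated by PFC values alone, and in 2 culture experiments the comparison was tested. Earlier results of these data were known at the choice, so these tests may not be independent of it. In the PFC the log2 fold change of the 10 genes (log2FC, anti-miR-99b over sc-control) ran from 0.60 (Srpk3) to 4.02 (Avil). None of the 10 passed the threshold in primary microglia, where 0.435% of all genes tested passed as higher and 0.0535% as lower. None passed in co-cultures of neurons and microglia, where 0.846% passed as higher and 0.556% as lower. Passing was thus rare among all genes, and a count of none does not set the members apart. In each culture experiment only 4 of the 10 had enough reads to be tested.

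RNA was sequenced from 29 libraries in 3 experiments. PFC tissue came from C57BL/6J mice aged 3 months, 3 injected with anti-miR-99b and 3 with sc-control, and was collected from 1 hemisphere 5 days after the injection. Primary microglia were grown from newborn CD1 pups (P1) and 4 cultures received anti-miR-99b and 4 sc-control. In the co-cultures, CD1 cortical neurons from embryonic day 17.5 were joined by treated microglia, in 7 libraries with anti-miR-99b and in 8 with sc-control. The microglia were treated for 2 days, and co-cultures were kept for another 2 days. Anti-miR-99b blocks miR-99b-5p and is built of locked nucleic acid (LNA), as is the scrambled sc-control. In the mice both were packed in lipid nanoparticles, so that control mice also received an LNA and nanoparticles. The paper also describes loaded nanoparticles for microglia added to co-cultures, without saying so for the sequenced ones. The PFC mice and the cultures therefore differed in strain, age, cell make-up and route of delivery at the same time, and these cannot be told apart. Nothing in the labels says that the culture libraries came from separate animals, so p-values there measure the spread between libraries, which may be technical.

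A microRNA guides the silencing machinery to messenger RNAs that pair with its seed, the bases 2 to 8 from its 5′ end, mostly within the 3′ untranslated region (UTR), and lowers their level or translation. The mature sequences of miR-99b-5p and of the other 2 mouse microRNAs with the same seed are shown, from RefSeq (GRCm38.p6), because the seed defines which UTRs could pair. Capitals mark the seed.
miR-99b-5p: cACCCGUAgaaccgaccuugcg
miR-99a-5p: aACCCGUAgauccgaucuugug
miR-100-5p: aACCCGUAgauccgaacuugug

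The miR-99b-5p sequence lies on chromosome 17 at chr17:17830194-17830215 on the plus strand, and it differs from each of the others at 4 of 22 bases, all outside the seed. None of the 10 genes held the 7-base complement of the seed, TACGGGT, in an annotated 3′ UTR (GENCODE M21). None held the shorter 6-base complement, ACGGGT, either. Of 14858 genes tested in the PFC with an annotated 3′ UTR, 1.45% held the 7-base and 7.3% the 6-base complement. The longest UTRs of the 10 genes had a median length of 334 bases, against 1186 bases over the 14858 genes. This search covered these letters and these UTRs only, and pairing elsewhere or without a full seed was not searched.

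Sequencing depth ranged from 21324156 to 37901110 counted reads per library and from 24482309 to 36475236 in the PFC. Levels are given as CPM, a gene's share of its library's counted reads after TMM scaling. The median log2FC over all tested genes was 0.0025 in each experiment. Markers of the labelled cells were present in each case, with summed levels of 12 neuron markers between 13540 and 14560 CPM in the PFC and of 15 microglia markers between 15990 and 16860 CPM in the microglia. The co-cultures held 9191 to 9549 CPM of neuron markers and 157.5 to 212.5 CPM of microglia markers. In bulk RNA, more cells of a type and more RNA per cell cannot be told apart.

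Avil encodes advillin, an actin-binding protein of the gelsolin and villin family known from peripheral sensory neurons and tuft cells. It is a protein-coding gene on chromosome 10 (chr10:127000709-127020994, GRCm38, plus strand). The 3 anti-miR-99b mice had 16.2, 15.7 and 9.14 CPM of Avil, from 398, 438 and 278 reads. The 3 sc-control mice had 0.642, 0.599 and 1.25 CPM, from 23, 17 and 43 reads. Every anti-miR-99b mouse was thus far above every control mouse, and the group means were 13.7 ± 3.94 and 0.831 ± 0.365 CPM (SD, n = 3 each). The log2FC of Avil was 4.02 (standard error 0.30), the largest of the 15 genes that passed the threshold.

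No marker of the cell types in which advillin is best known passed the threshold beside it. Only 0.0864% of all genes tested in the PFC passed. Of 40 interferon-stimulated genes, all 40 had a log2FC above 0 (median 0.77) and 1 passed. A marker list with none past the threshold, here or below, may thus still have shifted. Of 10 peripheral sensory neuron markers, 6 were tested in the PFC, with a median log2FC of -0.12. Their summed level was 20.5 to 28.3 CPM in control mice and 22.05 to 26.4 CPM in anti-miR-99b mice. Of 5 tuft cell markers, 3 were tested, 2 of them above 0, with a median log2FC of 0.41. Their summed level was 3.35 to 3.44 CPM in control mice and 3.15 to 4.17 CPM in anti-miR-99b mice.

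**Figure D1:**
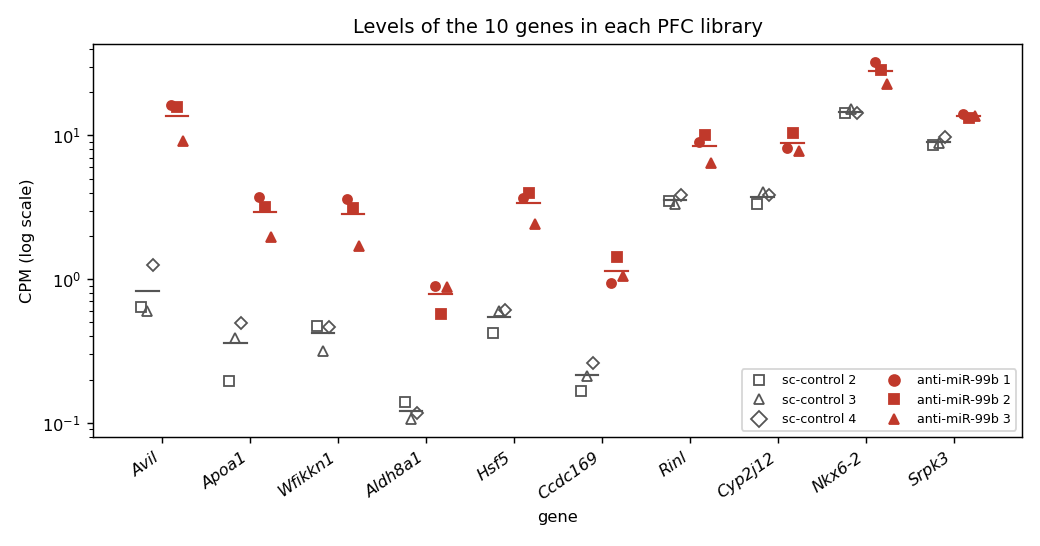
Level of each of the 10 genes in each PFC library, in CPM on a log axis, with sc-control mice as open grey symbols and anti-miR-99b mice as filled red symbols (n = 3 each). Horizontal lines are group means. The groups overlap for none of the 10 genes, and Avil has the widest gap, from at most 1.25 CPM in control mice to at least 9.14 CPM in anti-miR-99b mice.

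Apoa1 and Wfikkn1 encode secreted proteins. Apolipoprotein A1 is the main protein of high-density lipoprotein and is made chiefly in liver and intestine. Its gene (chr9:46228580-46230466, plus strand) had 3.72, 3.18 and 1.97 CPM after anti-miR-99b. In the sc-control mice it had 0.196, 0.388 and 0.495 CPM, from only 7 to 17 reads. The means of 2.96 ± 0.893 and 0.359 ± 0.152 CPM (SD, n = 3 each) gave a log2FC of 3.03 (standard error 0.34). The summed level of 10 hepatocyte and enterocyte markers overlapped between the groups, at 22.6 to 47.4 CPM in control and 14.5 to 48.4 CPM in anti-miR-99b mice, with Serpina1a, Fabp1 and Ahsg at 0 reads in all 6. Nearly all of this sum was Ttr, a gene also known from choroid plexus, at 31.1 ± 17.3 CPM after anti-miR-99b and 36.3 ± 12.8 CPM after sc-control (SD, n = 3 each). The other marker tested, Apoa2, a further HDL protein gene, was higher like Apoa1, at 0.530 ± 0.152 and 0.263 ± 0.0163 CPM, but did not pass (log2FC 0.97, unadjusted p = 0.0153, edgeR adjusted p = 0.606).

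Wfikkn1 encodes a secreted protein with several protease-inhibitor-like domains that binds the growth factors GDF8 and GDF11. It lies on the minus strand of chromosome 17 (chr17:25877628-25880858). The anti-miR-99b mice had 3.63, 3.15 and 1.71 CPM and the sc-control mice 0.475, 0.317 and 0.47 CPM. The log2FC was 2.71 (standard error 0.33). As with Avil and Apoa1, the third anti-miR-99b mouse had the lowest level of the 3 and was still well above the control mice.

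Hsf5, Ccdc169 and Aldh8a1 had low levels in control PFC, as did Apoa1 and Wfikkn1. Hsf5 encodes a heat shock factor family protein known from male germ cells (chr11:87617164-87659542, plus strand). It had 3.68, 4.00 and 2.43 CPM after anti-miR-99b and 0.419, 0.599 and 0.612 CPM after sc-control, a log2FC of 2.63 (standard error 0.26). The summed level of 9 testicular germ cell markers overlapped between the groups, at 8.10 to 9.13 CPM in control and 7.11 to 8.94 CPM in anti-miR-99b mice, with Sycp1 at 0 reads and none of the 3 tested past the threshold.

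Ccdc169 encodes a coiled-coil protein (chr3:55137339-55172935, plus strand). Its level was 0.939, 1.43 and 1.05 CPM after anti-miR-99b and 0.168, 0.211 and 0.262 CPM after sc-control, with a log2FC of 2.40 (standard error 0.31). The control values rest on 6, 6 and 9 reads. Aldh8a1 encodes an aldehyde dehydrogenase of tryptophan breakdown by the kynurenine route, known from liver and kidney (chr10:21377291-21396585, plus strand). Per kilobase of exon it had the lowest control level of the 10 in the PFC, and its levels were 0.898, 0.572 and 0.888 CPM against 0.140, 0.106 and 0.117 CPM, so that its log2FC of 2.65 (standard error 0.36) compares 16 to 27 reads with 3 to 5 reads. For Ccdc169 and Aldh8a1 the direction was shared by all mice but the fold was set by a handful of control reads.

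The other 4 genes were readily counted in control PFC and differed less. Cyp2j12 encodes a cytochrome P450 of a family that converts fatty acids to epoxides (chr4:96099318-96141152, minus strand). It had 8.21, 10.5 and 7.83 CPM after anti-miR-99b and 3.35, 4.02 and 3.87 CPM after sc-control, and the log2FC was 1.24 (standard error 0.15). It belongs to a cluster of closely related genes, between which short reads can be split. Of the family members, Cyp2j5, Cyp2j7 and Cyp2j11 had 0 reads in all 6 PFC libraries. Cyp2j6, the nearest tested gene at a higher coordinate, was more abundant than Cyp2j12. It had 22.2 ± 1.69 CPM after anti-miR-99b and 21.8 ± 0.648 CPM after sc-control (SD, n = 3 each), a log2FC of 0.03. A split of reads between these genes was not tested.

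Rinl encodes a Ras and Rab interactor-like protein that activates Rab5-type GTPases in endocytosis (chr7:28788969-28798963, plus strand). It had 8.98, 10.0 and 6.45 CPM after anti-miR-99b and 3.49, 3.31 and 3.87 CPM after sc-control, a log2FC of 1.25 (standard error 0.17). Per kilobase of exon, Rinl was also the member with the highest level in cultured microglia. In the PFC, 13 of 15 microglia markers had a log2FC above 0 with a median of 0.28, and none passed the threshold. Their summed level was 648.7, 633 and 889.4 CPM in the control mice and 856.2, 929.3 and 858.4 CPM in the treated mice. The part of microglia in the Rinl difference was not tested.

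Nkx6-2 encodes a homeobox transcription factor of oligodendrocytes and of the ventral neural tube (chr7:139579376-139582797, minus strand). Its level was 32.5, 28.6 and 22.7 CPM after anti-miR-99b and 14.3, 15.2 and 14.3 CPM after sc-control, the highest of the 10 per kilobase of exon. The log2FC was 0.93 (standard error 0.12). The 20 oligodendrocyte markers had a median log2FC of -0.03, 10 above 0 and none past the threshold. Single markers ran from -0.49 (Aspa) to 0.27 (Myrf). The summed level of the 20 was 7193 to 7748 CPM in control and 6187 to 7857 CPM in anti-miR-99b mice. Of 10 oligodendrocyte precursor markers, 8 had a log2FC above 0, with a median of 0.15, and none passed. The part of these cells in the Nkx6-2 difference was not tested.

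Srpk3 encodes a serine/arginine-rich protein kinase known from skeletal muscle (chrX:73774405-73778925, plus strand). The anti-miR-99b mice had 14.1, 13.3 and 13.7 CPM and the sc-control mice 8.52, 8.84 and 9.73 CPM. The difference was the smallest of the 10, at a log2FC of 0.60 (standard error 0.09), but its 2 groups were tight. The summed level of 10 skeletal muscle markers was 35.3 to 40.8 CPM in control and 38.4 to 46.4 CPM in anti-miR-99b mice, and none of the 6 tested passed the threshold.

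In the PFC a gene passed the threshold if its edgeR adjusted p-value was under 0.1 and its log2FC was over 0.2 in size. It was passed by 15 of 17364 genes tested, which is 0.0864%, all of them higher after anti-miR-99b. The groups did not overlap, with anti-miR-99b higher, for all 10 members and for 7.52% of all genes tested, while 5.81% did not overlap with anti-miR-99b lower. Both member counts follow from the choice of members. Of the 10, Srpk3 was just inside the threshold. Just outside lay Sh3d21, with 4.13, 3.93 and 2.30 CPM after anti-miR-99b and 0.810, 1.13 and 1.37 CPM after sc-control. The other 5 genes past the threshold were Mx2, an interferon-induced antiviral gene (log2FC 1.45), Usp54 (0.51), Chd2 (0.53), Aspm (1.33) and Nkx2-2os (1.57).

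How many members passed the PFC threshold depended on single mice. Each member stayed higher after anti-miR-99b, a direction that their choice fixes. Avil alone passed without anti-miR-99b mouse 2 or without sc-control mouse 2. Without sc-control mouse 3 there were 4 members past it, without anti-miR-99b mouse 1 there were 7, without anti-miR-99b mouse 3 there were 9 and without sc-control mouse 4 all 10. Over the same fits the log2FC of Avil lay between 3.84 and 4.44 and that of Srpk3 between 0.56 and 0.66. The median log2FC of the 10 lay between 2.34 and 2.60.

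The 10 genes and the interferon-stimulated genes were ordered differently among the 3 anti-miR-99b mice. Mouse 3 had the lowest level of 7 of the 10 members and the highest of none. Of 40 interferon-stimulated genes, 38 were highest in mouse 3, 2 in mouse 2 and none in mouse 1. The order of the mice over all genes tested was not counted. Against the mean of the control mice, the median log2 ratio of the interferon-stimulated genes was 0.48, 0.62 and 1.02 in mice 1, 2 and 3. That of the members was 2.45, 2.49 and 2.10. In Avil the ratio was 4.29, 4.23 and 3.46, so that mouse 3 had 0.573 times the mean level of mice 1 and 2.

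**Figure D2:**
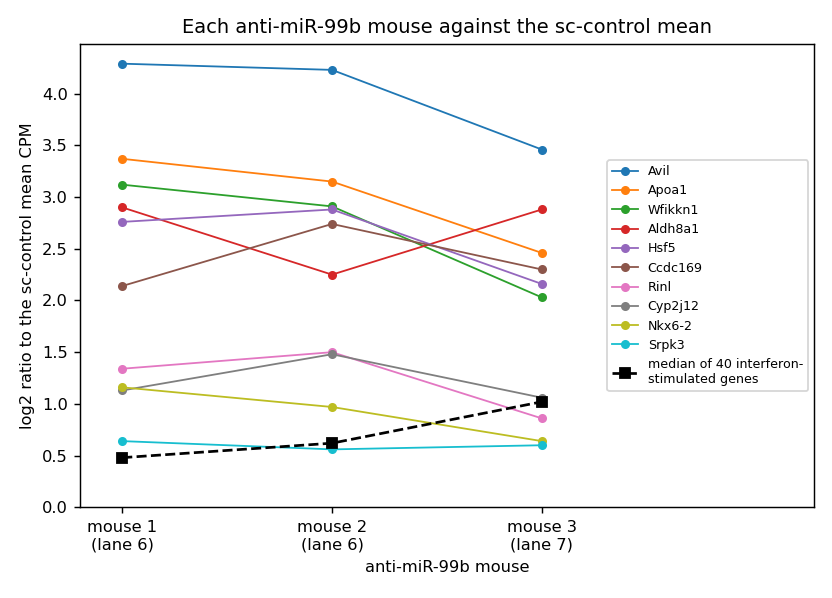
Log2 ratio of each anti-miR-99b mouse to the mean CPM of the 3 sc-control mice, for each of the 10 genes and for the median of 40 interferon-stimulated genes (black squares). Lines join the values of a gene and imply no order of the mice, and mouse 3, on another lane, has the lowest value for 7 of the 10 genes and the highest interferon median, 1.02.

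Mouse 3 was also the only anti-miR-99b mouse sequenced on lane 7, where sc-control mouse 4 was run, while the other 4 libraries were on lane 6. Sc-control mouse 4 had the highest control level of Avil, Apoa1, Hsf5, Ccdc169, Rinl and Srpk3, and the highest summed level of interferon-stimulated genes among the controls (473.7 CPM against 343.8 and 300.5 CPM). The lane and the mouse cannot be told apart with 1 mouse per group on lane 7. Within lane 6 (2 mice against 2) the log2 ratio of Avil was 4.68, and within lane 7 (1 against 1) it was 2.87. The same ratios were 3.56 and 1.99 for Apoa1, 3.10 and 1.88 for Wfikkn1, 2.92 and 1.99 for Hsf5 and 2.64 and 2.01 for Ccdc169. Aldh8a1 went the other way, with 2.58 and 2.93. The less changed genes had ratios of 1.48 and 0.73 (Rinl), 1.34 and 1.01 (Cyp2j12), 1.05 and 0.67 (Nkx6-2) and 0.66 and 0.50 (Srpk3). Anti-miR-99b was higher on both lanes for each gene. This had to be so, because the members were chosen as higher and their groups did not overlap. The ratio was smaller on lane 7 for 9 of the 10.

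In primary microglia the question was whether the cells that respond to anti-miR-99b in culture also raise these genes. With edgeR's quasi-likelihood test (adjusted p-value under 0.1, log2FC over 0.1 in size), 65 of 14953 genes were higher (0.435%) and 8 lower (0.0535%). None of the 10 members was among them. The 4 with enough reads were Rinl, Nkx6-2, Srpk3 and Wfikkn1. At an unadjusted p under 0.05, where 3.4% of all genes were higher and 3.04% lower, there were 0 of the 4, and DESeq2 also called none. The groups overlapped for all 10, as they did for nearly all genes tested, of which 1.65% were higher and 1.8% lower in every anti-miR-99b library.

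Rinl was abundant in microglia, at 51.6, 45.9, 44 and 44.5 CPM in the sc-control and 47.4, 46.1, 49.0 and 44.7 CPM in the anti-miR-99b libraries, from 1095 to 1702 reads. The 2 groups lay on top of each other. The log2FC was 0.02, with a 95% interval of -0.08 to 0.11 and an edgeR adjusted p-value of 0.982, and the upper bound was far below the PFC value of 1.25. Rinl was thus measured in these cells with a narrow interval around 0.

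Nkx6-2 had 2.26 to 3.34 CPM (median 3.02) in the sc-control and 2.60 to 3.54 CPM (median 3.10) in the anti-miR-99b microglia. Its log2FC was 0.07 (95% interval -0.21 to 0.34, edgeR adjusted p = 0.964), against 0.93 in the PFC. Oligodendrocyte markers were also found in these cultures, at summed levels of 328.1 to 386.1 CPM. Their part in the Nkx6-2 reads was not tested.

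Srpk3 had 2.31, 2.16, 2.28 and 1.64 CPM in the sc-control and 1.78, 1.74, 1.61 and 1.80 CPM in the anti-miR-99b microglia. All 4 treated libraries were below the control mean, and 3 of them were above the lowest control. The log2FC of -0.26 (95% interval -0.55 to 0.04, edgeR adjusted p = 0.841) pointed away from the PFC value and did not pass the threshold. Wfikkn1 had 15 to 37 reads per library and a log2FC of -0.21 (95% interval -0.71 to 0.30, edgeR adjusted p = 0.944). Both upper bounds were below the PFC values.

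The other 6 members were at or near 0 in microglia. Avil had 2 to 8 reads per library, Hsf5 0 to 5, Ccdc169 0 to 5, Cyp2j12 0 to 4, Aldh8a1 0 to 2 and Apoa1 0 or 1. Exact permutation tests of the CPM of these 6 genes (two-sided, 4 libraries against 4) gave p-values from 0.143 (Ccdc169) to 0.971 (Hsf5). Fitted without the read filter, where intervals on so few reads are approximate, the upper 95% bounds of the log2FC lay below the PFC values for Avil (0.41), Ccdc169 (0.05), Hsf5 (1.58) and Aldh8a1 (1.83). For Apoa1 (3.82) and Cyp2j12 (3.23) they lay above, so that for these genes a difference of the PFC size was not detectable at this depth.

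**Figure D3:**
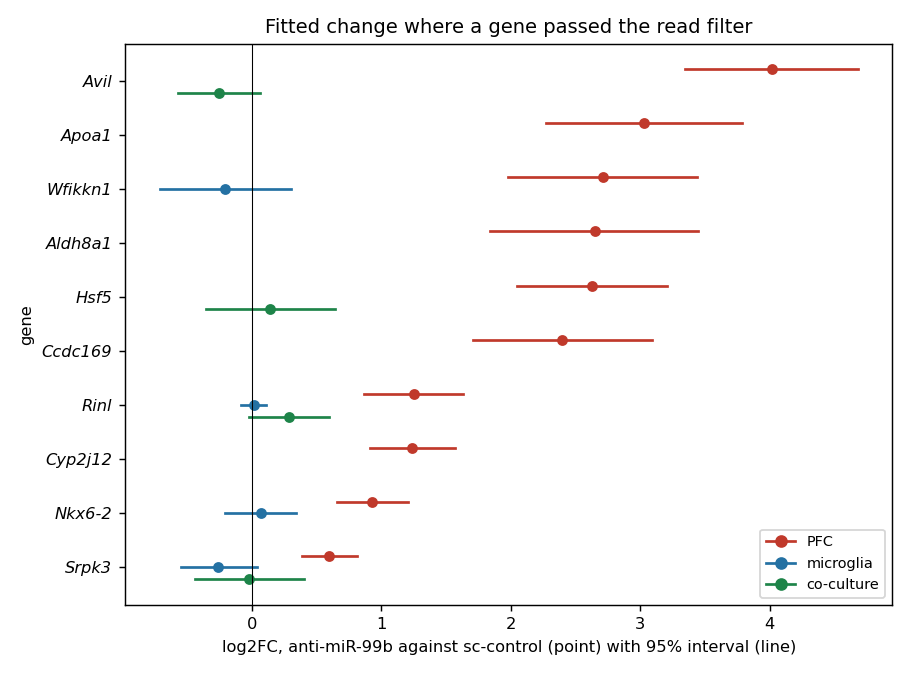
Fitted log2FC of anti-miR-99b against sc-control (points) with 95% intervals (lines) for each gene that passed the read filter in the PFC, microglia and co-culture experiments. The PFC values chose the genes, and in both cultures the points lie between -0.26 and 0.29 with every interval spanning 0.

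The co-cultures asked whether genes change in neurons and microglia together once the microglia have received anti-miR-99b. With the cut at an edgeR adjusted p-value of 0.05 and the same size of log2FC, 137 of 16193 genes were higher (0.846%) and 90 lower (0.556%). Again none of the 10 members was among them, with edgeR or DESeq2. The 4 with enough reads were Avil, Hsf5, Rinl and Srpk3, and none of these had an unadjusted p under 0.05. Nor did most genes tested, with 6.4% higher and 6.81% lower at that cut. The groups overlapped for all 10 here too, as for nearly all genes tested, of which 0.303% were higher and 0.278% lower without overlap.

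Avil had 0.589 to 1.53 CPM (median 1.08) in the 8 sc-control and 0.764 to 1.12 CPM (median 0.935) in the 7 anti-miR-99b co-cultures, from 15 to 47 reads per library. This is about the level of control PFC, and 1 of 7 treated co-cultures lay above the control mean. The log2FC was -0.25 (95% interval -0.57 to 0.06, edgeR adjusted p = 0.518), and the upper bound lay far below the 4.02 of the PFC. The interval thus lay below any PFC value of Avil under the alternatives run (3.84 to 4.44).

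Hsf5 had 0.289 to 0.647 CPM (median 0.418) in the sc-control and 0.290 to 0.831 CPM (median 0.432) in the anti-miR-99b co-cultures. Its log2FC was 0.14 (95% interval -0.35 to 0.64, edgeR adjusted p = 0.852), below the 2.63 of the PFC. Rinl was the member nearest to a difference, at 0.550 to 1.13 CPM (median 0.926) and 0.670 to 1.30 CPM (median 1.16), with 6 of 7 treated co-cultures above the control mean. Its log2FC of 0.29 (95% interval -0.02 to 0.60, edgeR adjusted p = 0.425) did not pass. In the same co-cultures 13 of the 14 microglia markers tested had a log2FC above 0 and 7 passed the threshold, with a median of 0.32, and their part in the Rinl values was not tested.

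Srpk3 differed little, with a log2FC of -0.02 (95% interval -0.44 to 0.40, edgeR adjusted p = 0.983). The upper bound just reached its PFC 95% interval, 0.39 to 0.81. The remaining 6 members had too few reads, at most 10 per library for Ccdc169 and 8 or fewer for Apoa1, Wfikkn1, Nkx6-2, Aldh8a1 and Cyp2j12. Exact permutation tests of their CPM (two-sided, 7 libraries against 8) gave p-values from 0.118 (Aldh8a1) to 0.821 (Apoa1). Without the read filter, the upper 95% bounds of the log2FC were 0.62 for Apoa1, 0.79 for Wfikkn1, 0.66 for Ccdc169, 0.65 for Nkx6-2 and 0.41 for Aldh8a1, each below its PFC value. For Cyp2j12 the bound of 1.48 was above the PFC value of 1.24.

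The 10 genes had different resting levels in the 3 experiments, and these are set side by side without a test because the tables were scaled separately. Per kilobase of exon, control PFC ranged from 0.0275 CPM (Aldh8a1) to 7.65 CPM (Nkx6-2). Nkx6-2, Cyp2j12 and Srpk3 were highest in the PFC, with no overlap of the control libraries with those of either culture. In microglia Nkx6-2 was at 1.53 ± 0.258 CPM per kb (SD, n = 4) and in co-cultures at 0.0505 ± 0.0320 (SD, n = 8).

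Rinl and Wfikkn1 were instead highest in microglia. Rinl stood at 12.8 ± 0.970 CPM per kb in control microglia (SD, n = 4), 0.982 ± 0.0792 in control PFC (SD, n = 3) and 0.244 ± 0.0516 in control co-cultures (SD, n = 8), with no overlap between any of the 3. Wfikkn1 stood at 0.363 ± 0.102, 0.165 ± 0.0349 and 0.0786 ± 0.0278 CPM per kb in the same order. For Avil the control libraries of the PFC and the co-cultures overlapped, at 0.245 ± 0.107 and 0.321 ± 0.0787 CPM per kb, and microglia were lower at 0.0526 ± 0.0299. PFC and co-culture controls overlapped for Hsf5, Apoa1, Ccdc169 and Aldh8a1 too.

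**Figure D4:**
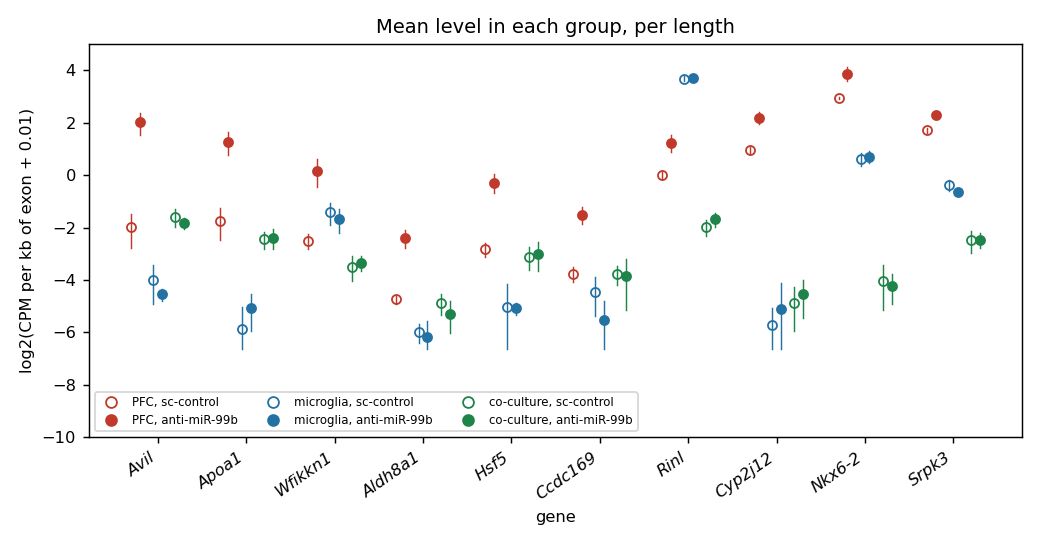
Mean level of each gene per kilobase of exon, as log2(CPM per kb + 0.01), in the sc-control (open) and anti-miR-99b (filled) groups of the 3 experiments, with vertical lines for ± 1 SD, not drawn below a level of 0. Rinl is highest in microglia, at 12.8 CPM per kb in controls, and Nkx6-2 in the PFC, at 7.65.

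The genes lay on 8 chromosomes, and their neighbours were examined because reads of overlapping genes can be miscounted. Avil shares 165 exon bases with Tsfm, a mitochondrial translation factor gene on the opposite strand. Tsfm had 15.5 ± 0.321 CPM after anti-miR-99b and 15.8 ± 0.828 CPM after sc-control (SD, n = 3 each), a log2FC of -0.03. Ctdsp2 ends 733 bases before Avil on the same strand and had a log2FC of -0.09. Neither gene passed the threshold beside Avil.

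Nkx6-2 shares 246 exon bases with Inpp5a on the opposite strand, whose log2FC was 0.03. Gm26694 overlaps Wfikkn1 without shared exon bases and had a log2FC of -0.07. Spg20 ends 16 bases before Ccdc169 on the same strand, and its log2FC was -0.03. Sirt2, an oligodendrocyte-rich deacetylase gene ending 307 bases before Rinl, had 0.12. Over all 23 distinct neighbours tested (overlapping, or the nearest tested gene on each side) the median log2FC was -0.01 and the range -0.20 to 0.34. Genes with too few reads to be tested were passed over, so genes nearer to a member may be missing here. No neighbour passed the threshold, and 3 had an unadjusted p under 0.05, against 5.17% of all genes higher and 2.47% lower.

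These 3 were Plxnb3, Rnf43 and Mtmr4. Plxnb3, a semaphorin receptor gene of oligodendrocytes, ends 1890 bases before Srpk3 on the same strand and had 55.6 ± 0.714 CPM against 44.2 ± 1.78 CPM (SD, n = 3 each). With a standard error of 0.07 the log2FC was 0.33, at an edgeR adjusted p of 0.224. Rnf43 and Mtmr4 flank Hsf5 and had opposite signs, 0.34 and -0.20.

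**Figure D5:**
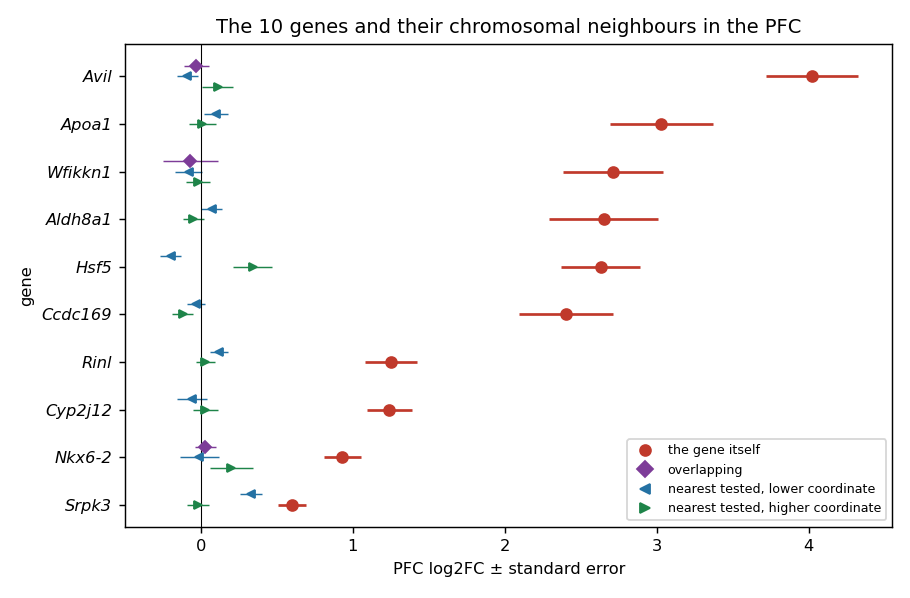
PFC log2FC (± standard error) of each of the 10 genes (red circles) and of the genes that overlap it (purple diamonds) or are the nearest tested on either side (blue and green triangles). The neighbours lie between -0.20 and 0.34. The gene itself lies to the right of its neighbours in each row, which is likely from the start for genes chosen by a high PFC value.

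The genes whose PFC profile was most like that of Avil were found by the root mean square difference in log2(CPM + 0.5), centred on the control mean, over the 6 PFC libraries. The 5 nearest were Apoa1 (1.01), Hsf5 (1.10), Wfikkn1 (1.14), Otoa (1.43) and Sh3d21 (1.51). Otoa, which encodes otoancorin of the inner ear, had 1.43, 1.64 and 0.460 CPM after anti-miR-99b and 0.112, 0.0705 and 0.116 CPM after sc-control. In the cultures Otoa had 0 to 7 reads per library. Otoa and Sh3d21 were, like Avil, lowest in anti-miR-99b mouse 3 of the 3 treated mice. Likeness here rests on 6 libraries, and on the same mice that chose the members.

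Relatives of the members by family or pathway were followed from lists. Of 96 such genes, 76 were tested in the PFC, with a median log2FC of 0.02. Only Nkx2-2os, the antisense transcript of the oligodendrocyte gene Nkx2-2, passed the threshold, and none passed in microglia (64 tested) or co-cultures (66 tested). Nkx2-2os had 1.98 ± 0.147 CPM after anti-miR-99b and 0.669 ± 0.193 CPM after sc-control (SD, n = 3 each), a log2FC of 1.57. Nkx2-2 itself had a log2FC of 0.12. All 8 tested genes of that list were above 0, with a median of 0.24.

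In the gelsolin and villin family, all 6 tested relatives of Avil were above 0 with a median log2FC of 0.22 and none passed. Gsn, which encodes gelsolin, had the highest level per length of them, with 123.1 ± 5.92 CPM against 102.2 ± 10.4 CPM (log2FC 0.27, edgeR adjusted p = 0.536). Among apolipoprotein genes, 8 of 10 tested were above 0 with a median of 0.22 and none passed. The most abundant, Apoe, had 1635 ± 210.7 CPM against 1390 ± 58.5 CPM (log2FC 0.23, edgeR adjusted p = 0.648).

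In the other families no gene passed the threshold. Heat shock factors and their targets had a median log2FC of -0.08 over 10 tested, follistatins and their ligands -0.08 over 7, Rin and Rab5 genes -0.07 over 11 and SR protein kinases -0.06 over 8. Srpk2, the most abundant kinase of the last list per length, had a log2FC of -0.10. Of the Cyp2j and epoxide hydrolase genes, 5 were tested with a median of 0.03, and Ephx2 had 0.01. Ephx3 stood apart at 1.43 ± 0.659 CPM against 0.282 ± 0.11 CPM (SD, n = 3 each), with a log2FC of 2.35 that did not pass (edgeR adjusted p = 0.18). Of the kynurenine and aldehyde dehydrogenase genes, 11 were tested with a median of 0.09, and Aldh2 had 0.01.

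The promoters of the 10 genes (300 bases from 250 before the start site, RefSeq, GRCm38.p6) shared no searched motif. All 10 were found in the table of 32851 promoters, Ccdc169 with a second start site. The core of the interferon-stimulated response element, GAAANNGAAA on either strand, was in none of them and in 3.44% of all promoters. The heat shock element GAANNTTCNNGAA was also in none, and in 0.603% of all. The gamma-activated sequence TTCNNNGAA was in 2 (Cyp2j12 and Aldh8a1), against 8.3% of all, and the TATA box TATAAA in 2 (Ccdc169 and Srpk3), against 13.6%. The 2 gamma-activated matches and the Srpk3 TATA box at position -31 from its start site are shown, on the strand of the gene with the match in capitals, to show the letters that were found.
Cyp2j12 (chr4:96141392-96141400, minus strand): agTTCTGAGAAtacctt
Aldh8a1 (chr10:21377145-21377153, plus strand): gcccatTTCTCAGAAtggacc
Srpk3 (chrX:73774374-73774379, plus strand): agaagcTATAAAtgcact

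A match describes letters and is not a bound site. The GC content of the promoters also differed among the members, from 73.3% for Hsf5 and 66.7% for Nkx6-2 to 43% for Avil, and down to 28.7% at the second start site of Ccdc169, against a median of 52.7% over all promoters.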

How the data were processed

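The authors prepared polyA-selected libraries with the TruSeq RNA kit, sequenced 50-base single reads on an Illumina HiSeq, aligned them to mm10 with STAR 2.5.2b, counted reads per gene with featureCounts 1.5.1 (per the labels and the submitters' processing notes) and deposited raw counts without normalization. The annotation release and strand setting are not given in the sources used here, so counts of overlapping genes are uncertain. Symbols, exon lengths and coordinates were taken from GENCODE M21 (GRCm38), which named 48349 of 48709 identifiers. The 3 experiments were fitted separately with edgeR 4.0.16 (R 4.3.3): filterByExpr, TMM factors and the quasi-likelihood test over all genes passing the filter, with Benjamini-Hochberg adjustment and no covariate. Standard errors were derived from the F statistic. Genes below the filter were compared by exact permutation tests of CPM. Lane and replicate number came from library names. The fits were tested on simulated data. Alternatives were DESeq2 1.42.0, RLE factors, other read filters, lane or replicate number as a block, 1 RUVs factor, and each replicate left out in the PFC and microglia.

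The members, gene lists and tests were chosen with earlier results of these data known. Genes named are the members, their overlapping and nearest tested neighbours, the other genes past the PFC threshold, the family relative with the highest level per length, and the 5 genes nearest to Avil. Ephx3, Nkx2-2, Apoa2, Ttr, Aspa, Myrf and the gene just outside the threshold were named after their values were seen.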

Additional observations from a re-analysis of the deposited data

Results flagged for a closer look

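In 3 of 40 groups of 4 to 8 libraries, 1 library stood apart in the level of a member by Dixon's criterion at 95%. For normally distributed values chance alone gives this in about 1 of 20 groups. Where all other libraries have 0 reads, any library with reads is flagged, and that rate does not hold. Apoa1 in sc-control microglia had 0.0341 CPM in replicate 4, from 1 read, and 0 in the other 3 libraries. Aldh8a1 in anti-miR-99b microglia had 0.0660 CPM in replicate 1, from 2 reads, and 0 in the other 3. Rinl in anti-miR-99b co-cultures had 0.670 CPM in replicate 3, from 20 reads, and 1.03 to 1.30 CPM in the other 6.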

How the results depend on the processing

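In the cultures none of the 10 genes passed the threshold under any alternative run, with adjusted p-values down to 0.258 (Rinl in co-cultures, edgeR). In the PFC the genes were higher after anti-miR-99b under every alternative in which they could be fitted, a direction that their choice fixes. The counts over all genes depended strongly on the processing. In the PFC, where 15 were called higher and 0 lower, DESeq2 called 85 and 8, no filter beyond a total of 1 read 297 and 115, the lane as a block 73 and 4, and 1 RUVs factor 208 and 107. Requiring at least 10 reads in every library left 6 members, of which 5 passed, with a median log2FC of 1.24, since Apoa1, Wfikkn1, Ccdc169 and Aldh8a1 were no longer tested. RLE factors left 9, without Srpk3. Leaving out 1 mouse moved the higher count between 1 and 195 and the lower count between 0 and 6. The higher count was 1 without anti-miR-99b mouse 2 or sc-control mouse 2, 5 without sc-control mouse 3, 10 without anti-miR-99b mouse 1, 31 without anti-miR-99b mouse 3 and 195 without sc-control mouse 4, and the members called moved between 1 and 10.

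In microglia, with 65 higher and 8 lower, DESeq2 called 33 and 5, no filter 138 and 29, and 1 RUVs factor 116 and 42. Leaving out 1 library gave 0 to 234 higher and 2 to 175 lower, with 0 and 2 without sc-control replicate 4 and 234 and 175 without sc-control replicate 2. The higher count was also 6 without sc-control replicate 6 and, of the anti-miR-99b libraries, 11 without replicate 1, 101 without 3, 28 without 4 and 2 without 5. Nkx6-2 then had a log2FC between -0.02 and 0.14 and Rinl between -0.01 and 0.07, with the sign lost without sc-control replicate 2 (Nkx6-2), 4 or 6 (Rinl) or anti-miR-99b replicate 4 (-0.01 for both). In co-cultures, with 137 higher and 90 lower, the lane as a block gave 85 and 36 and 1 RUVs factor 281 and 234, and Srpk3 changed sign to 0.03 with the lane block. The causes of these shifts were not tested.

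Replicate numbers were shared by few libraries and did not pair them, with correlations of same-numbered libraries of 0.048 and -0.285 in the PFC, -0.051 and -0.038 in microglia and -0.015 to 0.047 in co-cultures. The replicate block keeps only libraries whose number occurs in both groups, in the PFC numbers 2 and 3, so it does not use all libraries. With this block, 475 genes were higher and 43 lower in the PFC with all 10 members called. In microglia 162 were lower, and in co-cultures 70 were higher and 23 lower. The median log2FC of the members in microglia was then 0.13 and Wfikkn1 changed sign to 0.25, and Srpk3 in co-cultures changed to 0.15. With 3 to 17 control reads for the rarest PFC genes and 0 to 8 reads in microglia, depth limits the precision of their PFC folds and what could be detected in culture, most of all for Apoa1 and Cyp2j12 in microglia.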
